A study of Mus musculus with 9 samples.

Results

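The unmodified state of MCEC, an established line of mouse cardiac endothelial cells, was described gene by gene from bulk RNA sequencing. The series holds 9 samples of this line. Its question concerns Zbtb46, a zinc finger regulator of transcription of the BTB family, in tumour angiogenesis and tumour immunity. The 3 samples used here carry the genotype label WT, with no treatment named in the labels, and the modified cells entered no calculation. Members were the protein-coding genes of the count table, 21936 of 55487 genes, each counted once. Passage, density and medium are not given in the sources used here. The labels do not say whether the replicates came from separate cultures, so the spread between them may be technical.

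Endothelial cells line blood vessels and hold together through vascular cadherin and PECAM1. They answer to VEGF and angiopoietins through receptor tyrosine kinases and are kept in their state by factors of the ETS and SOX families. In these cells 4 genes were given as markers: Eng, an accessory receptor for TGF-beta and BMP ligands of activated endothelium, Mcam, the adhesion molecule CD146, Col3a1, a fibrillar collagen chain, and Csf1, the growth factor of macrophages. Pecam1, Cdh5, Vwf, Kdr, Tek and Erg define the endothelial lineage more narrowly.

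Total counts were 39491828, 55745849 and 43009609 in replicates 1, 2 and 3, of which 79.6%, 90.3% and 87.6% fell on protein-coding genes. Ribosomal RNA features took 17.1%, 7.32% and 9.93%. Levels are given as RPKM, counts divided by merged exon length in kilobases and by the TMM-scaled protein-coding total, so that genes of different length can be set side by side. A gene was called expressed at 1 RPKM or more in each replicate. At these depths a count of 0 allows up to 0.0954, 0.0596 and 0.0797 CPM in replicates 1, 2 and 3, at 3 counts each. CPM is the same scale as RPKM without the length, but these limits used the protein-coding total before TMM scaling. They cover counting error only.

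Of the 21894 protein-coding genes with a known exon length, 10001 (45.7%) were expressed, and the median over all was 0.421 RPKM. A list with a share near 45.7% does not stand apart from all genes. A further 5724 (26.1%) had no count in any replicate, so zeros alone do not set a list apart. From 100 to 1000 RPKM lay 367 genes (1.68%), and 12 (0.0548%) stood at 1000 RPKM or more. The 12 genes at 1000 RPKM or more took 3.06% ± 0.0461 (SD, n = 3) of protein-coding counts, whereas the 4513 genes from 10 to 100 RPKM took 56% ± 0.219. The 100 most abundant genes took 17.0%, 16.6% and 17.3% of the counts in replicates 1, 2 and 3, a mean of 17.0% ± 0.356, and the top 1000 took 50.1% ± 0.521. The message was therefore spread over many genes of middle level rather than held by a few.

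Of the 10 highest nuclear genes, 6 were genes of translation. Eef1a1, the elongation factor that brings aminoacyl-tRNA to the ribosome, stood at 2592, 2581 and 2637 RPKM. The ribosomal proteins Rplp1 (2501 RPKM), Rplp0 (1501 RPKM), Rpl36 (1301 RPKM), Rpl8 (1185 RPKM) and Rpl4 (986 RPKM) were the other 5. The remaining 4 were Actb, cytoplasmic beta actin, at 1738 RPKM, the galectin Lgals1 at 1489 RPKM, the chaperone Hsp90ab1 at 1455 RPKM and the calcium-binding S100a11 at 1091 RPKM. The 13 mitochondrially encoded genes were all expressed but uneven, from 2605 RPKM for mt-Nd1 to 13.5 RPKM for mt-Nd3. mt-Co1, mt-Cytb, mt-Nd2 and mt-Nd5 followed mt-Nd1 at 2175, 1281, 913 and 540 RPKM. Together they took 1.06%, 1.07% and 0.911% of protein-coding counts.

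**Figure D1:**
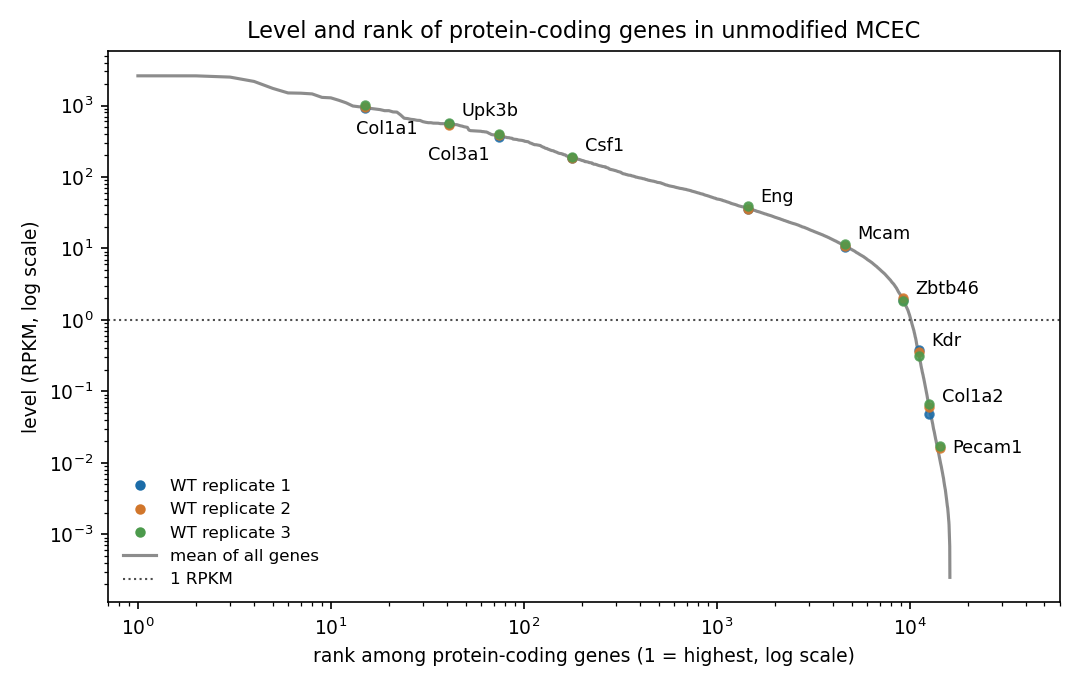
Level in RPKM (log axis) against rank among protein-coding genes (log axis). The line is the mean of all genes above 0, and points are the 3 WT replicates of named genes; Pecam1 had no count in replicate 1, which is not drawn. Col1a1 stood at rank 15, Csf1 at rank 178 and Kdr at rank 11123, under the dotted line at 1 RPKM.

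The marker genes stood at very different heights on this curve. Col3a1 (chromosome 1, 45311538 to 45349706, plus strand, GRCm38) measured 363.5, 381 and 401 RPKM, a mean of 382 ± 18.7 RPKM (SD, n = 3) and rank 74, or 674 RPKM with its longest transcript as the length. Csf1 (chromosome 3, 107741048 to 107760469, minus strand) measured 183, 187 and 188 RPKM, a mean of 186 ± 2.98 RPKM and rank 178. Eng (chromosome 2, 32646595 to 32682669, plus strand) measured 35.2, 35.7 and 39.1 RPKM, a mean of 36.7 ± 2.15 RPKM and rank 1449. Mcam (chromosome 9, 44134469 to 44142727, plus strand) was lower, at 10.45, 10.97 and 11.46 RPKM, a mean of 10.96 ± 0.507 RPKM and rank 4606. The replicate ranges of these 4 genes did not overlap, so their order was the same in each replicate. Zbtb46 (chromosome 2, 181387762 to 181459426, minus strand) was expressed at a low level, 1.88, 1.995 and 1.87 RPKM from 506, 855 and 592 counts, at rank 9250, or 3.06 RPKM with its longest transcript as the length.

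Levels went with the CpG content of promoters, a property that took no part in choosing the genes. RefSeq promoter windows of 300 bases on GRCm38.p6, spanning the start of the gene, were matched by symbol, and 14073 protein-coding genes had exactly 1 window. The median window held 2 CpG dinucleotides among genes with no count, 6 above 0 and under 0.1 RPKM, 12 from 0.1 to 1 RPKM, 21 from 1 to 10 RPKM and 24 from 10 to 100 RPKM. The quartiles were wide: 1 to 5 among genes with no count, and 17 to 31 from 10 to 100 RPKM. Across these genes Spearman's rho between CpG count and level was 0.657, which is a description, since genes are not independent replicates and promoters share base composition.

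**Figure D2:**
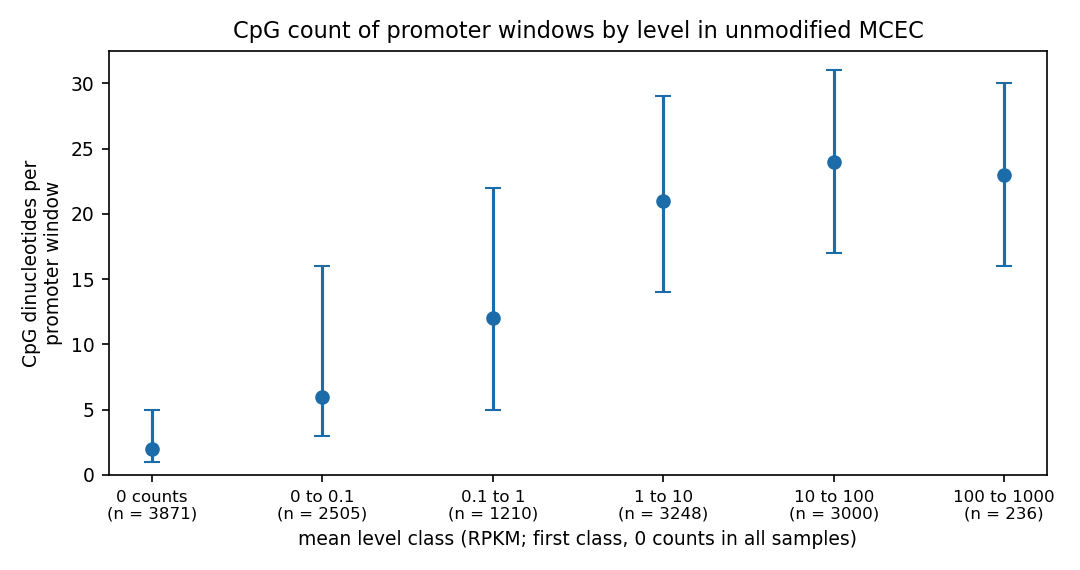
CpG dinucleotides per promoter window of 300 bases (vertical axis) by class of mean level in RPKM (horizontal axis), with the number of genes under each class. Points are medians and bars run from the lower to the upper quartile; medians go from 2 in genes with no count to 23 in the class from 100 to 1000 RPKM.

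Short motifs were searched in the same windows, on either strand. TATAAA was held by 26.9% of windows of genes with no count, by 6.07% from 10 to 100 RPKM and by 13.98% from 100 to 1000 RPKM, against 13.99% of all windows. GGGCGG, the core of the GC box, was held by 14.3%, 72.3% and 72.5% of the same classes, against 46.9% of all. CCAAT stayed between 36.8% and 40.7% in the 6 classes with more than 3 genes, beside 39.5% of all windows. GGAA, the core bound by ETS factors, was in 95.7% of all windows and so separated nothing. All 12 windows of cholesterol synthesis genes held CCAAT and GGGCGG, and 78.6% of the 28 windows of cell cycle genes held CCAAT; both lists were picked out after the values were seen.

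Single genes can depart from that relation, and the bases before the start of 6 genes are shown for comparison, some far from the median CpG count of their class and some near it. Col3a1, Upk3b, Csf1 and Mcam were expressed, Col1a2 and Cldn5 were not. Each run reads 5′ to 3′ on the strand of the gene up to the base before the RefSeq start on GRCm38.p6, and capitals mark CpG dinucleotides. The annotation used for the levels starts Mcam at 44134469 and Col1a2 at 4504814. By those starts, part of the Mcam run and all of the Col1a2 run lie inside the gene.
Col3a1 (chr1:45311288-45311537, plus strand): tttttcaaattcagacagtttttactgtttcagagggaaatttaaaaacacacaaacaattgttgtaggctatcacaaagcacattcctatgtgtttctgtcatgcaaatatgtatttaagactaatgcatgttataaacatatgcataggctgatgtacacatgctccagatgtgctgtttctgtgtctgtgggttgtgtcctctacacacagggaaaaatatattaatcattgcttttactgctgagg
Upk3b (chr5:136038246-136038495, plus strand): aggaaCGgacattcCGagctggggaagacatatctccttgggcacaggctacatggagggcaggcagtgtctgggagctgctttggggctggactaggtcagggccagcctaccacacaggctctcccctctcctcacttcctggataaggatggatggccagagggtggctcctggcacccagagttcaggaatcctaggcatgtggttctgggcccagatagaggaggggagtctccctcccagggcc
Csf1 (chr3:107760470-107760719, minus strand): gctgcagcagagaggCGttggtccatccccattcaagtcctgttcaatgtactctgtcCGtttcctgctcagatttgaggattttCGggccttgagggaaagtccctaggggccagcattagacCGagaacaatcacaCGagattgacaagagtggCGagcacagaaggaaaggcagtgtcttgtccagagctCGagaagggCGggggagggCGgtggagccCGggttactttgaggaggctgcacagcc
Mcam (chr9:44134408-44134657, plus strand): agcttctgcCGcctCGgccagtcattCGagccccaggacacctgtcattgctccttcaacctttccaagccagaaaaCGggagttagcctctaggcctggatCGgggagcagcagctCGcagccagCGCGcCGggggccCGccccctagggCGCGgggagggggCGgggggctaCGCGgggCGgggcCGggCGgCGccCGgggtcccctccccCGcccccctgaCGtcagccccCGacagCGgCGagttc
Col1a2 (chr6:4505368-4505617, plus strand): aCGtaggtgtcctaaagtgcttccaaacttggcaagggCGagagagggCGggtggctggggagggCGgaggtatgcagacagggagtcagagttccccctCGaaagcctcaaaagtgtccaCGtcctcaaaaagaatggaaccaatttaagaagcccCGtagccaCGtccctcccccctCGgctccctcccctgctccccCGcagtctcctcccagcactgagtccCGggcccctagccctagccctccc
Cldn5 (chr16:18776597-18776846, plus strand): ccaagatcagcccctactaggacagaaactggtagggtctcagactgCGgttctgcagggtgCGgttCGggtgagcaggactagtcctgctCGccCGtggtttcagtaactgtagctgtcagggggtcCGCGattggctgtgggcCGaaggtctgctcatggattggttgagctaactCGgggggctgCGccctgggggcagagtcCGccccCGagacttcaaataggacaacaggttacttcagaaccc

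The Col3a1 run held 0 CpG and the Upk3b run 2, although their transcripts measured 382 and 552 RPKM. The Csf1 run held 10 and the Mcam run 25, at 186 and 10.96 RPKM. The Col1a2 and Cldn5 runs held 11 and 12 CpG, at 0.0586 RPKM and at no count in any replicate. TATAAA occurred in the Col3a1 run and GGGCGG in the Csf1, Mcam, Col1a2 and Cldn5 runs.

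The labelled endothelial identity was then set against its defining markers. Pecam1, the junctional adhesion molecule CD31, had 0, 5 and 4 counts. Cdh5, vascular cadherin, had 2, 0 and 2 counts, and Vwf, the clotting glycoprotein of endothelial granules, had 6, 5 and 2 counts. The highest of these 9 values, in Pecam1 in replicate 3, came to 0.0172 RPKM. Kdr, the main VEGF receptor of blood vessels, measured 0.374, 0.358 and 0.312 RPKM, and Tek, the angiopoietin receptor, 0.495, 0.459 and 0.438 RPKM. Kdr and Tek had between 74 and 163 counts per replicate, so they were detected in each, under the line for expression. In bulk RNA, fewer cells of a type and less RNA per cell cannot be told apart.

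Of the 34 endothelial surface genes, 9 (26.5%) were expressed, beside 45.7% of all protein-coding genes, and their median was 0.182 RPKM beside 0.421. The list was led by Eng, by Cav1, a coat protein of caveolae (33.5, 33.9 and 31.9 RPKM), and by Procr, the protein C receptor (22.8, 22.1 and 26.9 RPKM). Cd34, a sialomucin of progenitors and capillaries, measured 20.2, 19.4 and 20.02 RPKM (a mean of 47.4 RPKM with its longest transcript), and Mcam came next. No member reached 100 RPKM, a level that few genes reached, with 1.68% of all genes from 100 to 1000 RPKM. Cldn5, Clec14a, Gpihbp1 and Icam2, all of vessel lining, had no count in any replicate, as did 26.1% of all protein-coding genes. The leading genes Eng, Cav1, Procr and Cd34 are also known in cells other than endothelium. The remaining expressed members were Ecscr, Tspan8, Egfl7 and Flt1, at 3.22, 2.64, 1.73 and 1.52 RPKM. Ptprb, at 0.972, 0.999 and 1.002 RPKM, lay just under the line.

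Of 35 endothelial transcription factor genes, 19 (54.3%) were expressed, beside 45.7% of all genes, with a median of 1.45 RPKM beside 0.421. Id1 and Id3, inhibitors of basic helix-loop-helix factors and targets of BMP signals, led at 180 ± 7.48 RPKM and 115 ± 4.67 RPKM (SD, n = 3). The zinc finger factors Klf6 and Klf4 measured 23.5 and 16.1 RPKM, and the forkhead factor Foxc1 13.4 RPKM. Erg, an ETS factor that maintains endothelium, had no count in any replicate, and neither did Etv2, Sox7, Meox1 or Meox2. The factors at the top of the list are known in many cell types. Erg, Etv2 and Sox7 belong to the ETS and SOX families, of which the list also holds Fli1, Ets1, Ets2, Elk3, Etv6, Sox17 and Sox18. The levels of those members are not reported here, so these zeros do not describe the families.

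Among 7 genes of lymphatic endothelium, 2 were expressed, beside 45.7% of all genes. Pdpn, the mucin-like podoplanin, stood at 59.3, 58.0 and 56.3 RPKM, and Flt4, the receptor for VEGF-C, at 16.3, 16.3 and 17.8 RPKM. Prox1, the factor that defines this lineage, had 1, 0 and 0 counts. The other 4 members were Mmrn1, Lyve1 and Reln, at or under 0.00829 RPKM on average, and Ccl21a, with no count. Of 6 endocardial genes, 3 were expressed, near the 45.7% of all genes. These were Cdh11 (60.8 RPKM), Tmem108 (26.7 RPKM) and Nfatc1 (1.98 RPKM), while Npr3 was at 0.408 RPKM, Plvap at 0.0112 RPKM and Vwf near 0.

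Genes of other lineages were read in the same way. Among 13 epithelial and mesothelial genes, 7 (53.8%) were expressed, beside 45.7% of all genes, and 3 passed 100 RPKM. Of all protein-coding genes, 1.68% lay from 100 to 1000 RPKM and 0.0548% at 1000 RPKM or more. Upk3b, a uroplakin of mesothelium and bladder lining, measured 558, 526 and 572 RPKM, at rank 41. The keratins Krt14 and Krt19 measured 365 ± 28.5 RPKM and 323 ± 36.1 RPKM (SD, n = 3). Msln, the mesothelial surface protein mesothelin, measured 78.8, 79.9 and 73.8 RPKM. Wt1, a zinc finger factor of mesothelium and epicardium, measured 50.0, 51.2 and 50.5 RPKM, a mean of 101 RPKM with its longest transcript. Each of these 5 genes exceeded Mcam in each replicate. The keratins Krt7 and Krt8 were expressed at 2.06 and 1.44 RPKM, and Krt18, at 0.444 RPKM, was not. Epcam and Esrp1, which define epithelia, and Krt5 had no count in any replicate, and Cdh1, epithelial cadherin, had 0, 6 and 2 counts.

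Further genes of this kind were chosen after their values were seen and are given as values. Upk1b, a partner of uroplakins, stood at 390 RPKM, Lrrn4 at 220 RPKM, Aldh1a1, a retinaldehyde dehydrogenase, at 180 RPKM and Gpm6a at 106 RPKM. The cardiac and mesodermal factors Hand2, Gata6, Gata4, Tbx18 and Tbx20 measured 60.5, 37.0, 27.1, 14.7 and 10.3 RPKM. Bnc1, a zinc finger factor, measured 60.2 RPKM, Crb2 48.7 RPKM and Podxl 26.3 RPKM. Muc16, a membrane mucin, was low, at 1.63, 2.88 and 2.79 RPKM. The replicates of Upk1b were nearly level, at 391, 391 and 388 RPKM.

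Of 18 fibroblast genes, 8 (44.4%) were expressed, a share near the 45.7% of all genes. They were led by Col1a1 at 910, 939 and 1017 RPKM, Vim, the intermediate filament vimentin, at 436 RPKM and Col3a1. S100a4 followed at 63.5 ± 12.1 RPKM (SD, n = 3), but 51.7% of its exon length overlaps another gene, so its level is uncertain, and Dcn, the proteoglycan decorin, stood at 20.0 RPKM. The PDGF receptors Pdgfra and Pdgfrb measured 2.03 ± 0.183 and 0.756 ± 0.151 RPKM. Postn, periostin, and Tcf21, a factor of fibroblast precursors, had no count in any replicate.

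The contractile and blood cell lists had smaller shares of expressed genes, 2 of 14, 1 of 16 and 2 of 19, beside 45.7% of all genes. Of the 14 smooth muscle and pericyte genes, Smtn (41.1 RPKM) and Acta2, smooth muscle actin (3.73, 4.04 and 4.83 RPKM), were expressed. Notch3, Cnn1 and Des came next at 0.827, 0.327 and 0.272 RPKM, and Myh11, smooth muscle myosin, was at 0.0843 RPKM. Of the 16 cardiomyocyte genes, Myl7, the atrial light chain, was expressed, at 3.41 RPKM. Tnnc1, Nppb, Tnni3 and Tnnt2 followed from 0.248 to 0.0909 RPKM, and Actc1, Myh6, Myl2, Nppa and Pln had no count. Of the 19 leukocyte genes, Cd68, a lysosomal protein, and Batf3, an AP-1 factor of dendritic cells, were expressed at 3.56 and 2.66 RPKM. Ptprc, the pan-leukocyte CD45, had 2, 2 and 0 counts, Cd74, Coro1a and Fcer1g were under 1 RPKM, and Adgre1, Clec9a, Laptm5 and Tyrobp had none. Among 10 Schwann and neural genes, Mbp (16.4 RPKM), Tubb3 (4.04 RPKM) and Map2 (2.37 RPKM) were expressed, beside the same 45.7%. Rbfox3 and Snap25 had no count.

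**Figure D3:**
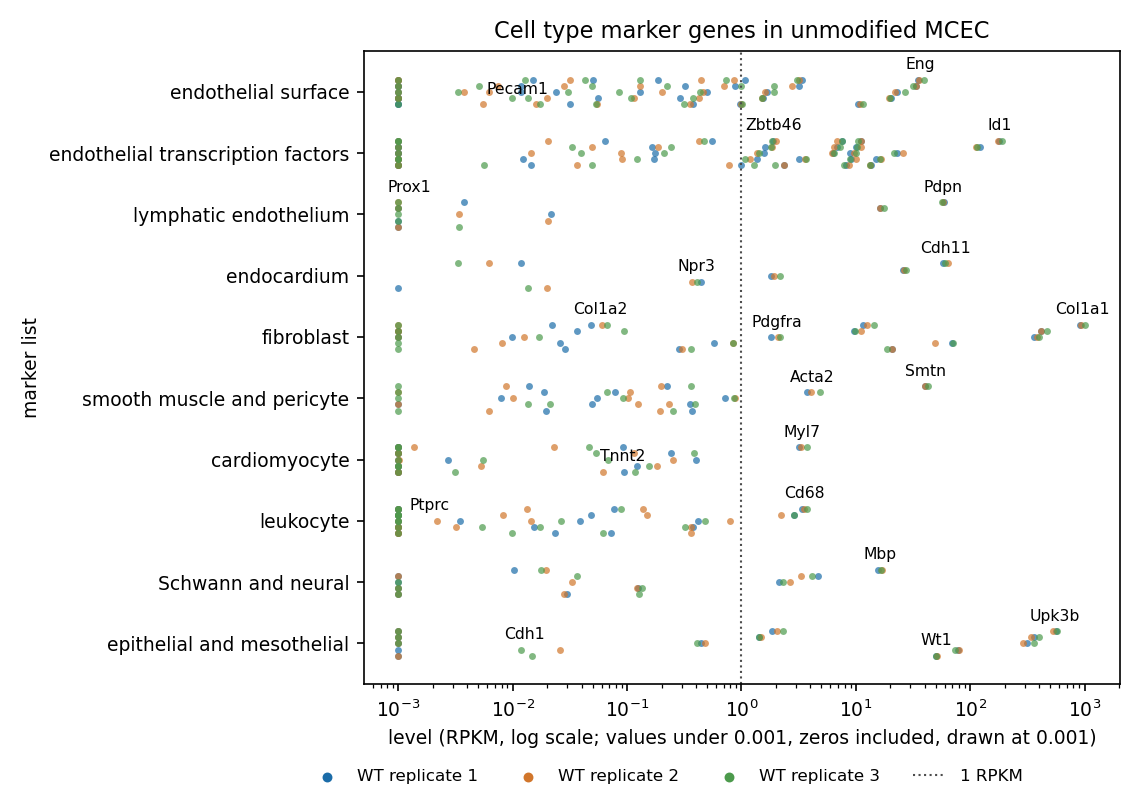
Level in RPKM (log axis) of each marker gene in 10 lists, with 1 point per WT replicate and values under 0.001 drawn at 0.001. The endothelial surface genes range from no count to Eng at 36.7 RPKM, and the epithelial and mesothelial list from no count to Upk3b at 552 RPKM.

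The defining markers thus went against the label: Pecam1, Cdh5, Vwf and Erg were at or near 0, and the highest genes of the marker lists were Col1a1, Upk3b, Vim, Col3a1, Krt14 and Krt19. The cells are called unmodified MCEC throughout and are given no other type name.

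Extracellular matrix made up a visible share of the message. The 44 collagen chain genes took 2.1%, 2.18% and 2.26% of protein-coding counts, although 16 of them were expressed, beside 45.7% of all genes. Col1a1 was highest, at rank 15, with 189337, 310456 and 248796 counts. Col1a2, whose product joins the product of Col1a1 in the usual type I collagen trimer, had 19, 38 and 31 counts, 0.0482, 0.0607 and 0.0669 RPKM. Col5a2, a chain of fibril-forming type V collagen, measured 436, 461 and 462 RPKM, and Col4a1, of basement membranes, 326, 338 and 354 RPKM. Col6a1 measured 238, 244 and 273 RPKM, and its range overlapped that of Col4a2, at 217, 226 and 242 RPKM.

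Chains that assemble together differed in how closely their levels went with each other. Col4a1 exceeded Col4a2 by 1.504, 1.495 and 1.462 times, and Col6a1 exceeded Col6a2 by 2.73, 2.70 and 2.75 times. Col6a2 stood at 92.4 ± 6.31 RPKM (SD, n = 3). Col6a3, another chain of type VI collagen, named after its value was seen, measured 0.0488 RPKM from 9, 32 and 31 counts. Col10a1 and Col22a1 had no count. In the ranking of all genes, Col1a2 stood at 12664 and Col6a3 at 12840, far below Col1a1 at 15 and Col6a1 at 130.

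**Figure D4:**
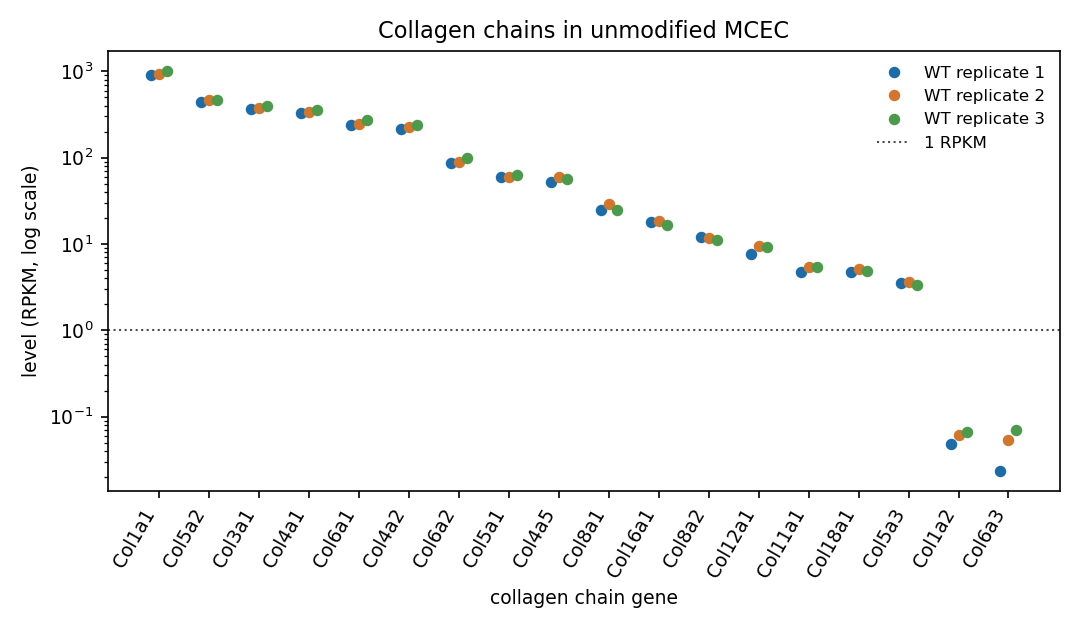
Level in RPKM (log axis) of the 16 expressed collagen chain genes and of Col1a2 and Col6a3, with 1 point per WT replicate. Col1a1 lies at 910 to 1017 RPKM, while Col1a2 and Col6a3 lie under 0.07 RPKM.

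Of 28 genes for the enzymes and chaperones that make collagen, 22 (78.6%) were expressed, beside 45.7% of all genes, with a median of 14.8 RPKM beside 0.421. Serpinh1, the collagen chaperone HSP47, measured 720, 675 and 820 RPKM, and P4hb, the disulfide isomerase subunit of prolyl hydroxylase, 619 ± 22.9 RPKM (SD, n = 3). Lox, which cross-links collagen and elastin, measured 142, 164 and 168 RPKM. P3h4 and Pcolce, which act on procollagen, stood at 116 and 88.4 RPKM.

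Of 45 matrix glycoproteins and proteoglycans, 27 were expressed, beside 45.7% of all genes. Of the 45, 5 passed 100 RPKM, beside 1.68% of all genes from 100 to 1000 RPKM. Sparc, a collagen-binding matricellular protein, measured 811, 790 and 827 RPKM, a mean of 1333 RPKM with its longest transcript. Fn1, fibronectin, measured 489, 580 and 633 RPKM, a wider range. Igfbp7, Ccn1 and Fbln2 stood at 388, 285 and 202 RPKM. Mfap5, Postn, Smoc2, Tgfbi, Thbs2 and Vtn had no count in any replicate. The list therefore held genes at rank 22 as well as genes that were not seen.

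In the basement membrane list, 13 of 23 genes were expressed, beside 45.7% of all genes. After the type IV chains came Lamc1, the common laminin gamma chain, at 103, 116 and 122 RPKM, Hspg2, perlecan, at 66.2, 74.2 and 85.7 RPKM, and Col4a5 at 56.3 RPKM. Lamc1 and Hspg2 were lowest in replicate 1 and highest in replicate 3. Among 35 matrix proteases and inhibitors, 19 were expressed, beside the same 45.7%. The gelatinase Mmp2 led at 156, 162 and 184 RPKM, followed by its inhibitor Timp2 at 141 RPKM, the sheddase Adam10 at 103 RPKM, Timp1 at 78.3 RPKM and Adam9 at 75.7 RPKM. Plg, Serpine2 and Timp4 had no count.

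Of 26 integrin chains, 10 (38.5%) were expressed, beside 45.7% of all genes. Itgb1, the beta chain shared by most matrix receptors, measured 224, 224 and 195 RPKM, and Itga3, an alpha chain for laminin, 122, 121 and 138 RPKM. Itgav, Itgb5 and Itga5, chains of receptors for fibronectin and vitronectin, followed at 36.2, 31.5 and 31.5 RPKM. Itgad had no count.

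Growth factor receptors were next. Of 58 receptor tyrosine kinases, 29 (50.0%) were expressed, near the 45.7% of all genes, with a median of 1.14 RPKM beside 0.421. Axl, the receptor for GAS6, measured 129, 140 and 149 RPKM, and Ddr1, a receptor for collagen, 107, 104 and 113 RPKM. Ptk7, Epha2 and Met, the receptor for HGF, stood at 70.8, 52.4 and 47.8 RPKM. Erbb4 and Ntrk3 had no count.

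Of 14 receptors for TGF-beta and BMP ligands, 11 (78.6%) were expressed, beside 45.7% of all genes. Tgfbr2 measured 36.3, 39.7 and 39.3 RPKM, a range that overlapped that of Eng. The type I and type II receptors Bmpr1a, Bmpr2 and Acvr1 stood at 24.2, 9.61 and 8.77 RPKM. Acvr1c had no count. Acvrl1, the type I receptor with which endoglin works in endothelium and named after its value was seen, had 11, 10 and 10 counts, 0.0636 RPKM. Eng was therefore measured with little of that partner transcript in each replicate.

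Of 37 Notch, Wnt and guidance receptors, 21 (56.8%) were expressed, beside 45.7% of all genes. The semaphorin receptor Plxnb2 led at 141, 147 and 165 RPKM, and the netrin receptor Unc5b followed at 69.3, 68.0 and 73.5 RPKM. Plxna1, Fzd2 and Plxna4 stood at 54.2, 43.0 and 38.3 RPKM, and Dcc, Fzd3 and Fzd10 had no count. Of 55 vasoactive G protein receptors, 8 (14.5%) were expressed, beside 45.7% of all genes. F2r, the thrombin receptor, stood alone at 51.6, 57.4 and 56.9 RPKM, while Lpar2, Lpar1, S1pr2 and S1pr5, receptors for lysophosphatidic acid and sphingosine 1-phosphate, lay from 7.53 to 4.52 RPKM. Ednra, Ednrb, Adgrl4, Agtr1b, Agtr2, F2rl1, F2rl2, Lpar3, Lpar4 and Ptger2 had no count.

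Cytokine and chemokine receptors were expressed in 24 of 51 cases (47.1%), near the 45.7% of all genes. Ltbr, Tnfrsf1a and Tnfrsf12a, of the TNF receptor family, led at 72.4, 70.6 and 56.6 RPKM, before Il6st, the shared gp130 chain, at 37.0 RPKM and Il17rc at 20.9 RPKM. The Ltbr and Tnfrsf1a ranges overlapped. Ackr1, Ccr1, Ccr2, Cd40, Csf2ra, Cxcr3, Il18r1 and Tnfrsf11b had no count.

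Among secreted ligands, 25 of 50 growth factors were expressed, beside 45.7% of all genes, and none reached 100 RPKM. Few genes of any kind did, with 1.68% of all genes from 100 to 1000 RPKM. Fgf18 measured 43.3, 37.7 and 43.0 RPKM. Vegfb and Vegfa, ligands of endothelial receptors, measured 37.4 ± 1.39 and 34.9 ± 1.08 RPKM (SD, n = 3), with Vegfa below Vegfb in each replicate. Tgfb3 stood at 24.2 RPKM and Sema3c at 23.4 RPKM, with overlapping ranges. Angpt1, Bmp2, Igf2 and Ptn had no count.

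Of 41 cytokines and chemokines in the table, 16 (39.0%) were expressed, beside 45.7% of all genes. Mif, the macrophage migration inhibitory factor, measured 613, 553 and 757 RPKM, a spread of 16.3% of the mean. Csf1 came second, with a spread of 1.6%, followed by Ccl2, which attracts monocytes, at 39.8, 40.3 and 47.7 RPKM. Il33, an alarmin, measured 16.02 RPKM, and Tnfsf12 11.6 RPKM, with 48.3% of its exon length shared with other genes. Ccl3, Csf2, Cxcl15, Cxcl2, Cxcl3 and Il1b had no count. Pairs of ligand and receptor were not always found together: Csf1r, named after its value was seen, measured 0.0764, 0.138 and 0.0883 RPKM beside Csf1 at 186 RPKM. Edn1, endothelin 1, also named after its value was seen, measured 23.3, 24.3 and 17.9 RPKM beside Ednra and Ednrb at no count.

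For contact with leukocytes, 10 of 19 genes (52.6%) were expressed, beside 45.7% of all genes. F11r, the junctional adhesion molecule JAM-A, measured 147, 144 and 149 RPKM, and Lgals9, Cd47, Cd99l2 and Cd44 stood at 48.8, 18.8, 12.7 and 12.5 RPKM. Glycam1 and Icam2 had no count. In the list of caveolae and junctions, 18 of 31 genes were expressed, beside the same 45.7%. Cavin1 and Cavin2, coat proteins of caveolae, measured 316 ± 11.1 and 112 ± 4.09 RPKM (SD, n = 3). Ctnnb1 and Ctnna1, the catenins of adherens junctions, stood at 109 and 67.7 RPKM, and Cldn15 at 67.2 RPKM. Cav3, Cdh13, Cldn3, Cldn5, Gja5 and Gjb2 had no count. The cadherin of highest level was Cdh11, at 60.8 RPKM, with Cdh5 at 0.00926 RPKM.

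Most genes of the housekeeping and growth lists were expressed, beside 45.7% of all genes. All 41 cell cycle genes were expressed, with a median of 47.6 RPKM. Cdkn2a, whose locus encodes the inhibitors p16 and p19ARF, was highest at 129, 115 and 143 RPKM, overlapping the replication helicase subunit Mcm3 at 127, 128 and 130 RPKM and Cdk4 at 127 RPKM. Ccnb2, a mitotic cyclin, and Pcna, the replication clamp, stood at 107 and 106 RPKM. Of 37 cytoskeletal genes, 34 were expressed, led after Actb by Tubb5 at 547 RPKM, Tmsb10 at 440 RPKM, Vim and Cfl1 at 389 RPKM. Of 84 cytosolic ribosomal protein genes, 80 were expressed, and Rpl10l and Rpl39l had no count. Ribosomal protein genes have many near-identical pseudogene copies, so the level of a single member is uncertain.

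Of 32 genes of glycolysis and hypoxia, 27 were expressed, beside 45.7% of all genes. Gapdh (575 RPKM), Pkm (558 RPKM), Tpi1 (393 RPKM), Ldha (351 RPKM) and Pgam1 (312 RPKM) led. Ankrd37, Car9, Slc16a3, Adm and Ldhb did not reach 1 RPKM in each replicate. Of 22 genes of cholesterol synthesis, 21 were expressed, and the regulators Srebf2 and Srebf1 stood at 68.8 and 57.9 RPKM, above the enzyme Cyp51 (30.04 RPKM) and the retention protein Insig1 (29.4 RPKM). All 26 genes of amino acid and stress responses were expressed. Calr and Hspa5, chaperones of the endoplasmic reticulum, measured 595 and 354 RPKM, Pdia3 261 RPKM, and Atf4, the factor that drives the amino acid response, 193, 175 and 194 RPKM, close to Phgdh, the first enzyme of serine synthesis, at 187 RPKM.

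Of 29 interferon response genes in the table, 14 (48.3%) were expressed, near the 45.7% of all genes. B2m, the light chain of class I molecules, measured 164, 165 and 171 RPKM, and H2-K1, H2-D1, Tapbp and Bst2 stood at 83.5, 71.5, 43.2 and 22.4 RPKM. Ifi44 and Rsad2 had no count. Of the class I presentation genes, B2m, H2-K1, H2-D1 and Tapbp were expressed, while Tap2 and Tap1 were not, at 0.977 and 0.633 RPKM. Psmb10 measured 15.2 RPKM, and Psmb9 and Psmb8 0.115 and 0.0658 RPKM. Of 22 immediate-early genes, 18 (81.8%) were expressed, beside 45.7% of all genes. They were led by Ier3 at 78.6 RPKM, Jund at 44.0 RPKM, Junb at 42.7 RPKM, Myc at 35.7 RPKM and Ier2 at 31.8 RPKM. Of Jund, 52.6% of the exon length overlaps another gene.

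The replicates agreed closely. The common biological coefficient of variation, fitted with edgeR over 11951 genes, was 7.88%. The trended coefficient, fitted along the level, had a median of 17.7% in genes under 3 CPM and 6.58% from 100 to 300 CPM. Among the 8960 genes at a mean of 10 CPM or more, the median spread of a gene was 5.85% of its mean, and the central 90% ran from 1.49% to 13.9%. Pearson's r of log2 CPM across genes lay from 0.993 to 0.995 for the 3 pairs of replicates. As a check for a library deposited more than once, the squared difference of each pair was set against counting noise; at the median gene it was 6.35 to 9.55 times as large.

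In 46 of those 8960 genes (0.513%) the highest replicate exceeded the lowest by more than 1.5 times, and in 8 by more than 2 times. Of the 46, replicate 2 was highest in 27, replicate 1 in 14 and replicate 3 in 5, and replicate 1 was lowest in 13. Ankrd60 measured 35.3, 12.5 and 6.30 CPM, and Pnck, a calmodulin-dependent kinase, 95.1, 31.9 and 19.4 CPM. Cadps2, a protein of vesicle release, measured 336, 114 and 180 CPM, and Mroh6 58.0, 21.1 and 22.2 CPM. H3c6 and H1f4, histone genes, measured 16.02, 6.13 and 10.4 CPM and 32.3, 15.8 and 15.4 CPM. All 8 genes beyond 2 times were highest in replicate 1; Ppp1r14a, at 21.9, 8.71 and 11.6 CPM, and Lars2, at 3416, 1510 and 1660 CPM, were the others.

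Replicate 1 was also the sample with the most ribosomal RNA, 17.1% of its counts beside 7.32% and 9.93% in replicates 2 and 3. Its part in the levels of these 8 genes was not tested. Lars2 encodes the mitochondrial leucyl-tRNA synthetase. Among the next genes by spread were Hmcn1 (8.99, 15.8 and 16.8 CPM) and Muc16 (42.9, 75.8 and 73.6 CPM), both lowest in replicate 1, and they were followed by H1f2, Romo1 and Nbeal1, each within 1.70 times. Klhl11, Zbtb20 and Mycbp2 were also lowest in replicate 1. Replicate 2 was highest for Ice2, Nbeal1, Fam126b and Fos, the immediate-early factor at 14.5, 23.9 and 17.1 CPM. Replicate 3 was lowest for Pigw and Rpl22l1 and highest for Romo1 (52.0, 41.7 and 70.6 CPM), Ndufs5, Cd302, Zfp580 and Gatd3a.

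Smaller deviations went with transcript length and GC content. Deviation here is the log2 CPM of a replicate less the mean of the other 2 replicates. In the quintile of genes with the longest transcripts, the median deviation was -0.09, 0.11 and -0.01 in replicates 1, 2 and 3. In the quintile with the shortest it was 0.04, -0.09 and 0.04. By GC content, replicates 2 and 3 went opposite ways: 0.14 and -0.14 in the quintile with the lowest GC, and -0.09 and 0.09 in the quintile with the highest. Replicate 1 stayed within 0.01 across the GC quintiles. The part of length and GC content in the spread of single genes was not tested.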

How the data were processed

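Per the labels' protocols, poly-A RNA of MCEC was captured on beads, broken by heat, copied from random primers and read in pairs. The authors deposited a table of whole-number read counts per Ensembl gene, not normalised, judged from the values. The submitters' processing notes name the builds GRCm38 and mm10; the aligner, counter, use of strand and annotation release are not given in the sources used here, so overlapping genes may share counts. Columns were matched to samples by name, with 0 columns left over. The 55774 rows hold 55487 genes, because 168 genes stand on 455 rows that repeat the same counts, of which 1 was kept. Merged exon lengths came from GENCODE M21 by Ensembl identifier, and 42 protein-coding genes without a length have no RPKM.

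Counts were scaled with TMM in edgeR 4.0.16 (R 4.3.3), and the spread was fitted with an intercept only on genes kept by filterByExpr. DESeq2 1.42.0, Python 3.11.15, pandas 2.3.3, numpy 2.4.6, scipy 1.17.1 and matplotlib 3.10.9 were also used. The SD of log2 CPM used a pseudocount of 0.5 CPM. No test between groups was made. The spread procedure was tested on simulated counts. The gene lists, the families and the genes described were chosen with earlier results of these data known. Named genes were Eng, Mcam, Col3a1, Csf1, Zbtb46, the 10 highest nuclear genes, the top 5 and defining markers of each list, members with no count, the 15 genes of widest spread, and the 5 that deviated most up and down in each replicate; predicted genes were counted but not named, and some genes that this rule names are not reported here. Where a symbol had several identifiers, the older was used. Mx1, Mx2 and Cxcl11 were not analysed here. Alternatives were other scalings, lengths, thresholds and filters, and each replicate left out in turn.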

Additional observations from a re-analysis of the deposited data

How the results depend on the processing

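The median level of expressed genes was 9.69 RPKM. Scaling to all genes of the table, ribosomal RNA included, gave 8.30 RPKM and taking the longest transcript as length gave 13.2 RPKM. With the longest transcript, 36 of 214 named genes with a level stood more than 1.5 times higher, among them Col3a1 (674 RPKM), Sparc (1333 RPKM), Vim (707 RPKM), Cd34 (47.4 RPKM) and Wt1 (101 RPKM); the shorter length itself gives this. The count of genes beyond 1.5 times between replicates, 46, became 8 at 2 times, and 17 to 23 when a replicate was left out, since 2 samples span less than 3. It was 21 without replicate 1, 17 without replicate 2 and 23 without replicate 3. The coefficient of variation lay from 7.38% to 8.62% when a replicate was left out. Expressed genes numbered 10657 at 0.5 RPKM and 6849 at 5 RPKM, and 9835 to 10277 under the other settings. Listed genes counted as expressed, 579, lay from 566 to 589, and the former value leaves out the 13 mitochondrial genes. No paired analysis was possible because 1 group was described and no result comes from a test. Low levels rest on few counts, such as 19, 38 and 31 for Col1a2, and the order among such genes is not resolved.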

Other observations

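Outside the protein-coding class, a single ribosomal RNA feature, CT010467.1, held 6759436, 4081814 and 4270046 counts, 17.1%, 7.32% and 9.93% of each replicate. Malat1, a nuclear long RNA, held 28926, 34010 and 20859 counts, and Neat1 6832, 11640 and 7557. The imprinted RNAs H19 and Meg3 had at most 1 count in a replicate. Xist, which coats the inactive X chromosome, had 0 counts in each replicate, and none of the 172 protein-coding genes of chromosome Y reached 1 RPKM in every replicate, with 8 counts over all of them and all replicates.

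Genes outside the lists and named after their values were seen included Fscn1, an actin-bundling protein, at 848 RPKM, Ezr, which ties actin to the membrane, at 438 RPKM, Scd2, a fatty acid desaturase, at 377 RPKM, Gas1 at 362 RPKM and the metallothionein Mt1 at 326 RPKM. Tert, the telomerase subunit, measured 3.08, 3.54 and 3.34 RPKM. Of the factors of epithelial to mesenchymal transition, Twist1 and Snai1 measured 11.8 and 9.33 RPKM, Zeb1 and Zeb2 2.83 and 2.11 RPKM, and Snai2 0.735 RPKM.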
